A study of Mus musculus with 6 samples.

Results

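Mitochondrial solute carriers and the channels that serve them were described by their RNA level in injured mouse muscle. The set was made by gene symbol: every gene of the table whose symbol starts with Slc25a and a digit, and Mpc1, Mpc2, Vdac1, Vdac2, Vdac3, Ucp2 and Ucp3. It held 47 of the 14016 genes of the table, 40 of them Slc25a genes and 7 from the added names. RNA with a poly(A) tail was sequenced from quadriceps of 3 WT mice and 3 GATA-1 mutant mice, 7 days post-injury. All mice had volumetric muscle loss with no implant. The mutant is the ΔdblGATA strain, which lacks eosinophils because of a deletion at the Gata1 locus that is present in every tissue, and the WT samples are titled B6.

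The table gives no value per mouse. For each gene it holds a mean log2 CPM (read counts scaled to the library size) and the fold changes and p-values of the study's own genotype comparison, which were not used here. No difference between genotypes was therefore analysed, no value has an SD, and the depth of each library is unknown. The mean is a single value by the authors over libraries that the table does not name. WT and mutant levels cannot be told apart in it. Because a long transcript yields more reads than a short transcript at the same number of copies, levels of different genes were compared per length, as the mean log2 CPM less the log2 of the length in kb of the longest coding transcript. The word level stands for this quantity throughout. In whole muscle, more cells of a type and more RNA per cell cannot be told apart.

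The inner mitochondrial membrane is closed to most charged molecules, and carriers of the SLC25 family move nucleotides, phosphate, carboxylates, amino acids, cofactors and metals across it. The voltage-dependent anion channels (VDACs) form the pores of the outer membrane, and the mitochondrial pyruvate carrier, made of MPC1 and MPC2, admits the end product of glycolysis. Contracting muscle depends on this traffic, since ADP and phosphate must enter the matrix and ATP must leave it. Uncoupling proteins are SLC25 relatives, and the founding member, UCP1, lets protons back into the matrix in brown fat.

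The label of muscle was checked by markers. All 10 skeletal muscle fibre markers were in the top 10% of genes by level, led by Acta1 at 13.77, Tnnt3 at 13.51 and Mylpf at 13.32. Macrophage markers had a median level of 3.30 over 5 genes, endothelial markers 4.53 over 3 genes and fibroblast markers 6.81 over 4 genes. Red blood cell markers had a median of 7.16 over 5 genes and adipocyte markers 3.91 over 4 genes. Of 10 eosinophil markers only Ear2 was listed, at 0.61. Their part in the carriers' levels was not tested.

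Promoter windows are shown for 2 of the pairs of relatives that stood far apart in level, the ADP/ATP carriers Slc25a4 and Slc25a5 and the aspartate/glutamate carriers Slc25a12 and Slc25a13. Each window runs from 250 bases before to 50 bases after the gene start in RefSeq (GRCm38.p6), 5′ to 3′ on the strand of the gene, and capitals mark matches to the motifs named after them. The window of Slc25a4 is chr8:46211013-46211312 on the minus strand, that of Slc25a5 chrX:36795347-36795646 on the plus strand, that of Slc25a12 chr2:71367706-71368005 on the minus strand and that of Slc25a13 chr6:6217124-6217423 on the minus strand.
Slc25a4: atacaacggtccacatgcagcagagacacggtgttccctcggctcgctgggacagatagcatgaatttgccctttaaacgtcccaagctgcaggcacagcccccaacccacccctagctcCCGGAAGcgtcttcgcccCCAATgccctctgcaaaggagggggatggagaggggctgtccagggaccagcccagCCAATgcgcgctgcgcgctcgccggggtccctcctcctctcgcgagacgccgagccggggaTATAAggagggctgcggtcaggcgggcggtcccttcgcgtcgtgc
Slc25a5: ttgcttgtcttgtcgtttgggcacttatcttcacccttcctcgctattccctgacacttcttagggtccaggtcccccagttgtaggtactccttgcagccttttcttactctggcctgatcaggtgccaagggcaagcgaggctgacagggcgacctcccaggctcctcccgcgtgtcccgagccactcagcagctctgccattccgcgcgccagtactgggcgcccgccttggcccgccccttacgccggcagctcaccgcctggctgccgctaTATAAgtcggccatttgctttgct
Slc25a12: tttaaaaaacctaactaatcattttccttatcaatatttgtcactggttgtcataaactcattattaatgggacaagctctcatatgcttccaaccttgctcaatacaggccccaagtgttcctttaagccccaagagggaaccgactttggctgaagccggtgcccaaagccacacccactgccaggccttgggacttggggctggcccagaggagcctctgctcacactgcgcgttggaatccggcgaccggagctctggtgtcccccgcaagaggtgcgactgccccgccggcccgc
Slc25a13: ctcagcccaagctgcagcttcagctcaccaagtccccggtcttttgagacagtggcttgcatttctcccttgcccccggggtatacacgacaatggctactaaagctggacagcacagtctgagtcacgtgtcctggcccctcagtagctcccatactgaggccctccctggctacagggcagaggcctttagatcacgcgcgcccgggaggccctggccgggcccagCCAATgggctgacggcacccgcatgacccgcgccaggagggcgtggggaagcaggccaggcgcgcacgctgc

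The motifs searched, on both strands, were TGCGCA from the core of the NRF1 site, the estrogen-related receptor site TCAAGGTCA, the ETS site CCGGAAG, the CCAAT box and the TATA letters TATAA. Of the 47 members 36 had a window in the RefSeq table. The Slc25a4 window held an ETS match, a pair of CCAAT boxes and TATAA at position 6 after the start, that of Slc25a5 TATAA at position 27 after the start, that of Slc25a13 a CCAAT box and that of Slc25a12 none of these letters. An ETS match was present for 8 of the 36 members, against 9.93% of all 27025 genes with a window and 8.86% of windows. CCAAT was present for 20 members, against 41.1% of all genes and 37.4% of windows. TATAA was present for 3, Slc25a4, Slc25a5 and Slc25a15, against 28.0% of all genes and 24.9% of windows. The NRF1 core was found for 3, Slc25a3, Mpc2 and Slc25a36, against 8.79% of all genes and 7.76% of windows, and the estrogen-related receptor letters for 0 members, against 0.466% of all genes and 0.423% of windows. The first windows of the members had a median GC content of 62.0% and a median of 20 CpG pairs. Over the 27025 genes with a window these were 52.7% and 7. Those genes were not limited to the genes of the expression table, as the members were. None of the motifs contains another. These matches are descriptions of sequence and were not tested.

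The levels of the members ran from 10.34 for Slc25a4 to -0.98 for Slc25a43, a span of 11.33 on the log2 scale, while all genes ran from -7.48 to 14.41. The median level was 3.16, against 2.27 over the 13938 genes with a length, and the median member lay at the 65.4 percentile of all genes. Above the median of all genes were 33 members, and 14 were at or below it. In the top 10% of genes were 13 members, and in the top 1% were 3, Slc25a4, Vdac1 and Slc25a3.

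**Figure D1:**
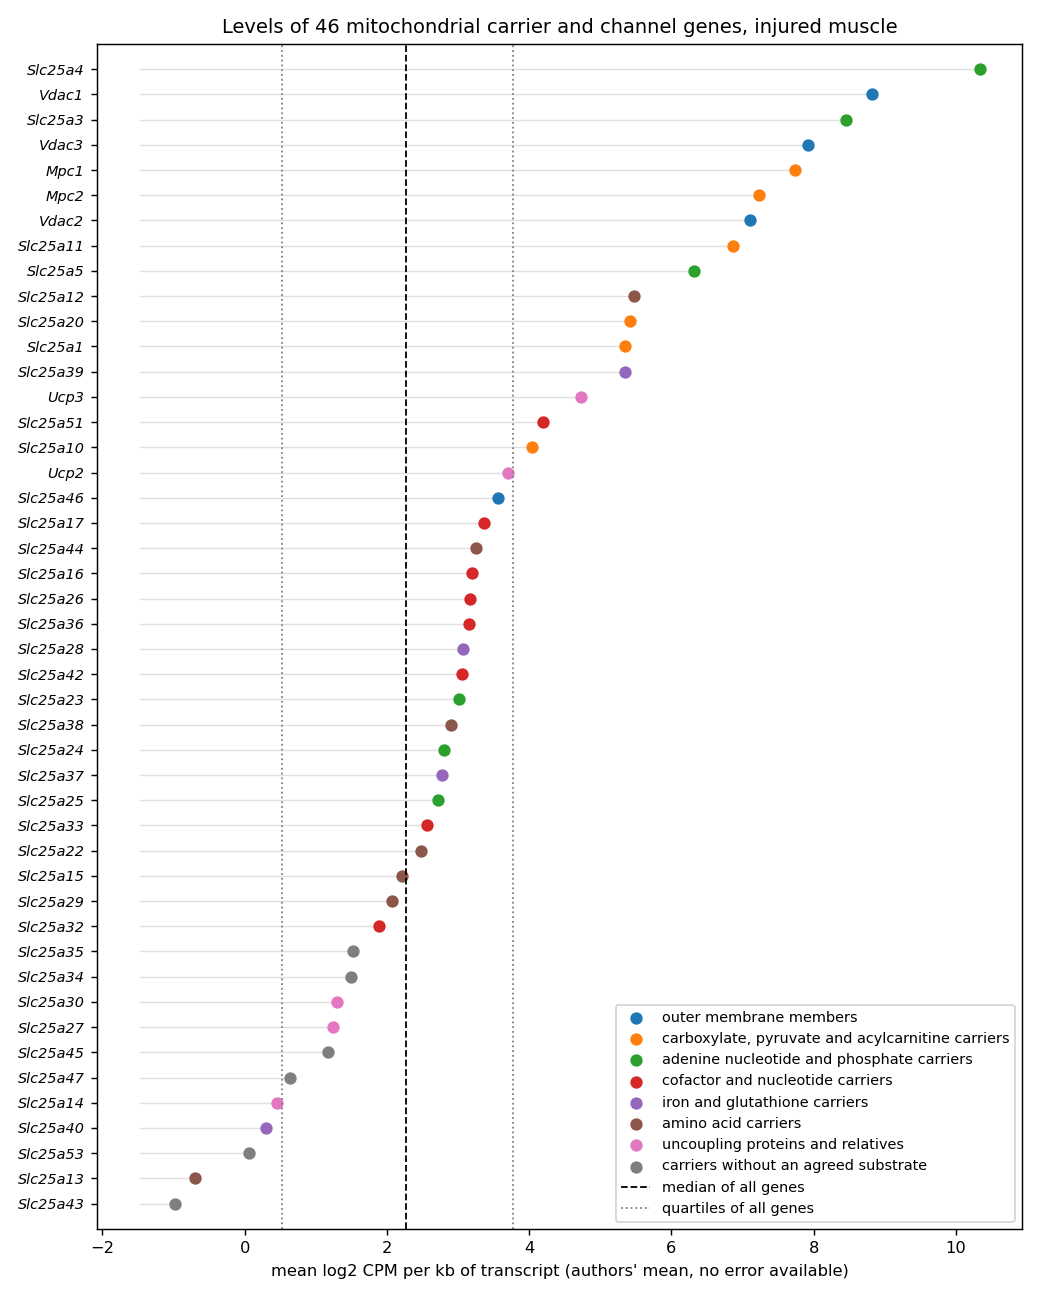
Level of 46 of the 47 members (mean log2 CPM per kb of the longest coding transcript, x axis), ordered from the highest, with colours for the role. The dashed line is the median of all genes at 2.27 and the dotted lines their quartiles at 0.53 and 3.78. Slc25a4 stands at the top at 10.34, and the carriers without an agreed substrate all lie to the left of the dashed line.

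The expression of the set was concentrated in a few genes. Converted back from log2, the summed level of the 47 members was 37.6% Slc25a4, and Slc25a4, Vdac1 and Slc25a3 together made up 60.8% of it. The 8 highest members made up 85.7%, and the other 39 the remaining 14.3%. Among Slc25a genes alone, Slc25a4 made up 58.5%. These shares hold per kb of the longest coding transcript and depend on the length assigned to each gene. Per kb of the median transcript Slc25a4 was at 10.61 and Vdac1 at 10.01, closer together than on this scale. Shares on other length scales are not given here.

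Adenine nucleotide and phosphate carriers serve ATP synthesis directly. Slc25a4, which encodes the ADP/ATP carrier ANT1 of heart and muscle, had a mean of 11.29 log2 CPM and a level of 10.34, rank 39 among all genes. Slc25a3, the phosphate carrier that supplies ATP synthase, had a mean of 9.14 log2 CPM and a level of 8.45, rank 138. Slc25a5, which encodes the more widely expressed ADP/ATP carrier ANT2, had a level of 6.31. The gap between Slc25a4 and Slc25a5 was 4.03 on the log2 scale, a ratio of 16.4. The calcium-dependent ATP-Mg/phosphate carriers, which adjust the adenine nucleotide content of the matrix, were lower, with levels of 3.01 for Slc25a23, 2.80 for Slc25a24 and 2.72 for Slc25a25. Their ratios depended on the length used: Slc25a23 was 1.13 to 2.87 times Slc25a24 and 1.17 to 2.40 times Slc25a25 over 4 length scales. All 6 listed carriers of this role were above the median of all genes, with a median level of 4.66.

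Members of the outer membrane had, on this length scale, the highest median level by role, 7.51 over 4 genes. Vdac1 was the second highest member, with a mean of 9.84 log2 CPM and a level of 8.83. Vdac3 at 7.93 and Vdac2 at 7.10 followed, in an order that turned on another length scale, and all 3 channel genes were among the 8 highest members. Slc25a46, an SLC25 relative of the outer membrane that is linked to mitochondrial shape, was at 3.56.

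Carriers of carboxylates, pyruvate and acylcarnitines move substrates and intermediates of the citric acid cycle and of fatty acid oxidation across the inner membrane. Of the subunits of the pyruvate carrier, Mpc1 was at 7.74 and Mpc2 at 7.24, a ratio of 1.42 that ran from 1.01 to 2.15 over 4 length scales. Slc25a11, the oxoglutarate/malate carrier of the malate-aspartate shuttle, was at 6.87. Slc25a20, which brings acylcarnitines in for fatty acid oxidation, was at 5.41, and the citrate carrier Slc25a1 at 5.35. Slc25a10, the dicarboxylate carrier, was the lowest of this role at 4.05. The median of the 6 listed genes was 6.14, at the 93.9 percentile of all genes.

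Amino acid carriers had a median level of 2.48, near the 2.27 of all genes, with a single gene well above the rest. Slc25a12, which encodes the aspartate/glutamate carrier aralar of the malate-aspartate shuttle, had a mean of 8.15 log2 CPM and a level of 5.48. Its relative Slc25a13, which encodes citrin, known for its role in the urea cycle of liver, had a mean of 0.94 log2 CPM and a level of -0.70, the second lowest of all members. The gap between them was 6.18 on the log2 scale, a ratio of 72.5. Slc25a44, a branched-chain amino acid carrier, was at 3.26, Slc25a38, a glycine carrier needed for haem synthesis, at 2.90 and the glutamate carrier Slc25a22 at 2.48. The ornithine carrier Slc25a15 at 2.22 and the basic amino acid carrier Slc25a29 at 2.07 were below the median of all genes. Of the 7 listed genes 4 were above that median on this length scale. With no length term, Slc25a22 at 3.97 and Slc25a38 at 3.74 were below the median of 4.04 of all genes.

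Cofactor and nucleotide carriers had 9 listed genes, with levels between 1.89 and 4.19. Slc25a51, the NAD carrier, led at 4.19. The peroxisomal Slc25a17 was at 3.36, Slc25a16, linked to coenzyme A, at 3.20 and the S-adenosylmethionine carrier Slc25a26 at 3.16. The coenzyme A carrier Slc25a42 was at 3.05. Of the pyrimidine nucleotide carriers, Slc25a36 was at 3.16 and Slc25a33 at 2.57, a ratio of 1.51 that ran up to 7.43 over 4 length scales. On this length scale Slc25a32, a carrier of folate and flavin, was the lowest at 1.89 and the sole gene of this role under the median of all genes. With no length term it was at 4.45, above Slc25a33 at 3.48 and the median of 4.04 of all genes. Per kb of the median transcript it was at 3.96 against 2.57 for Slc25a33, and per kb of coding length at 4.53 against 3.54.

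Iron and glutathione carriers serve haem, iron-sulfur clusters and redox balance. Slc25a39, a glutathione carrier, was at 5.34, while its relative Slc25a40 was at 0.29, a ratio of 33.1. The mitoferrins had no fixed order over length scales, Slc25a28 at 3.07 and Slc25a37, the form known from developing red blood cells, at 2.77.

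Uncoupling proteins and their relatives split by subgroup on this length scale. Ucp3, the form known from skeletal muscle, had a mean of 6.02 log2 CPM and a level of 4.73, and Ucp2, known from immune cells among others, a mean of 5.70 log2 CPM and a level of 3.70, an order that turned on another length scale. The relatives Slc25a30 at 1.30, Slc25a27 at 1.24 and Slc25a14 at 0.45 were all below the median of all genes. Per kb of the median transcript, however, Slc25a30 was at 4.27, nearer to Ucp3 at 5.11. Ucp1, which is no member of the set but is itself in the list of adipocyte markers, was listed at a level of 2.63. The markers of that list ran from -0.63 for Plin1 to 6.23 for Adipoq.

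Carriers without an agreed substrate were the lowest group, with a median level of 0.90 and none of the 6 listed genes above the median of all genes. They ran from Slc25a35 at 1.53 and Slc25a34 at 1.50 through Slc25a45 at 1.17 and Slc25a47 at 0.64 to Slc25a53 at 0.07 and Slc25a43 at -0.98. The 5 lowest members of the whole set were Slc25a14, Slc25a40, Slc25a53, Slc25a13 and Slc25a43. Slc25a43 had a mean of -0.83 log2 CPM, below the 1 CPM that the authors required in at least 3 samples, and was the sole member with a mean under 0.

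The GENCODE M21 annotation holds 8 further genes that match the rule by symbol and are not listed in the table used here. They are the coding genes Slc25a2, Slc25a18, Slc25a21, Slc25a31, Slc25a41, Slc25a48 and Slc25a54 and the pseudogene Slc25a5-ps. Slc25a31 encodes an ADP/ATP carrier known from male germ cells.

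Pairs of relatives with like roles were compared on 4 scales, because the ratio between genes depends on the length assigned to each: per kb of the longest coding transcript, with no length term, per kb of the median transcript and per kb of coding sequence. Of 13 pairs 9 kept 1 direction on all 4 scales. Slc25a4 was 15.7 to 25.4 times Slc25a5, Slc25a12 was 72.5 to 148 times Slc25a13, and Slc25a39 was 18.8 to 68.5 times Slc25a40. Vdac1 was 3.31 to 3.43 times Vdac2 and 1.87 to 4.13 times Vdac3. For 4 pairs the direction turned with the scale: Vdac3 and Vdac2, the mitoferrins Slc25a28 and Slc25a37, Ucp3 and Ucp2, and Slc25a24 and Slc25a25. The ratio of Ucp3 to Ucp2 ran from 0.448 to 2.04 and that of Slc25a28 to Slc25a37 from 0.420 to 1.23, so neither order is given as a result. Neighbours in the order of all members differed by little in places, such as Slc25a1 and Slc25a39 by 0.002 on the log2 scale, and without values per mouse no neighbours can be said to differ beyond their spread.

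**Figure D2:**
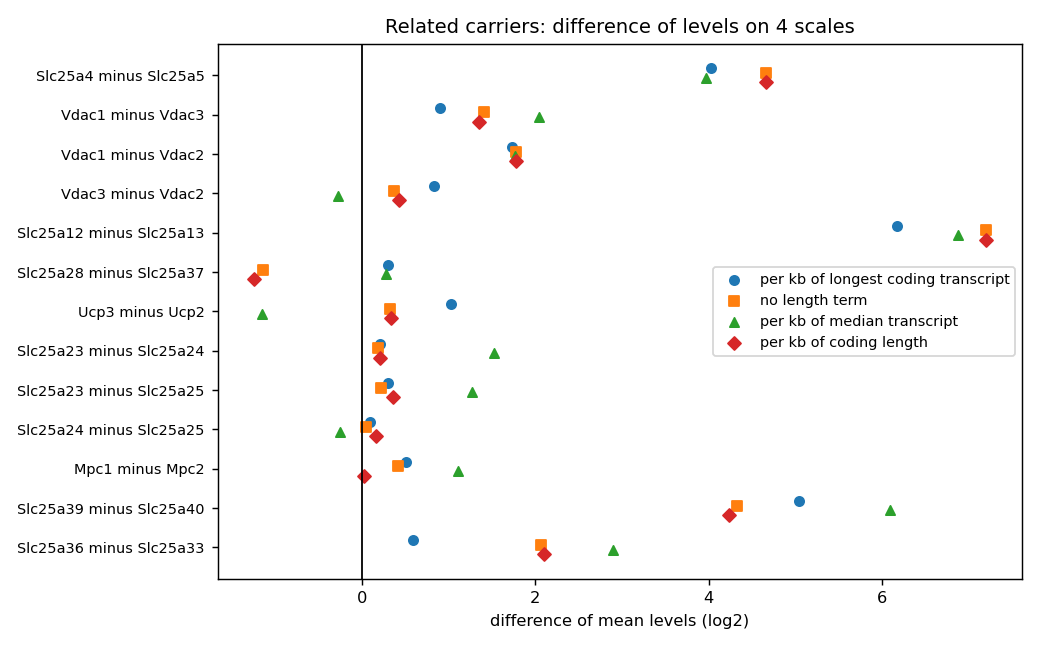
Difference of mean levels (log2, x axis) between the members of 13 pairs of related carriers, with a marker for each of 4 length scales. The pairs Slc25a12 and Slc25a13, Slc25a39 and Slc25a40, and Slc25a4 and Slc25a5 lie far to the right of 0 on every scale, while 4 pairs have markers on both sides of 0.

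The coding sequences of Slc25a4 and Slc25a5 are both 894 bases long and identical at 77.4% of aligned bases. Those of Slc25a12 (2031 bases) and Slc25a13 (2028 bases) were identical at 71.5%, and those of Ucp3 and Ucp2 at 75.4%. No pair of the 13 shared any 31-base word, the word length over which transcripts were compared here. Coding length was near uniform over the set: 39 of 47 members had a coding sequence of 800 to 1100 bases, with a median of 948. The 6 longer members were Slc25a12, Slc25a13, the calcium-dependent carriers Slc25a23, Slc25a24 and Slc25a25, and Slc25a46. The 2 shorter members were Mpc1 at 501 bases and Mpc2 at 381 bases, which are not of the SLC25 family.

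Several abundant members share sequence with other annotated genes, between which their reads could be divided. Slc25a5 shared 67.1% of its 31-base words with 13 other genes of GENCODE M21, and Vdac3 52.3% with 3, most of them with Vdac3-ps1. Mpc1 shared 33.1%, and Vdac2 18.1%. For these 4 genes 0 of the sharing genes are listed in the table. Slc25a35 shared 28.1%, nearly all with Rangrf, which makes its level uncertain. Slc25a4 and Slc25a12 shared 0% and 3.73%. In all, 18 members shared no word, and 9 shared over 10%. The levels of Slc25a5 and Vdac3 are thus less certain than those of Slc25a4 or Slc25a3. The same holds for the ratios given for Slc25a5 and Vdac3, whose ranges vary only the length and not the shared sequence.

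**Figure D3:**
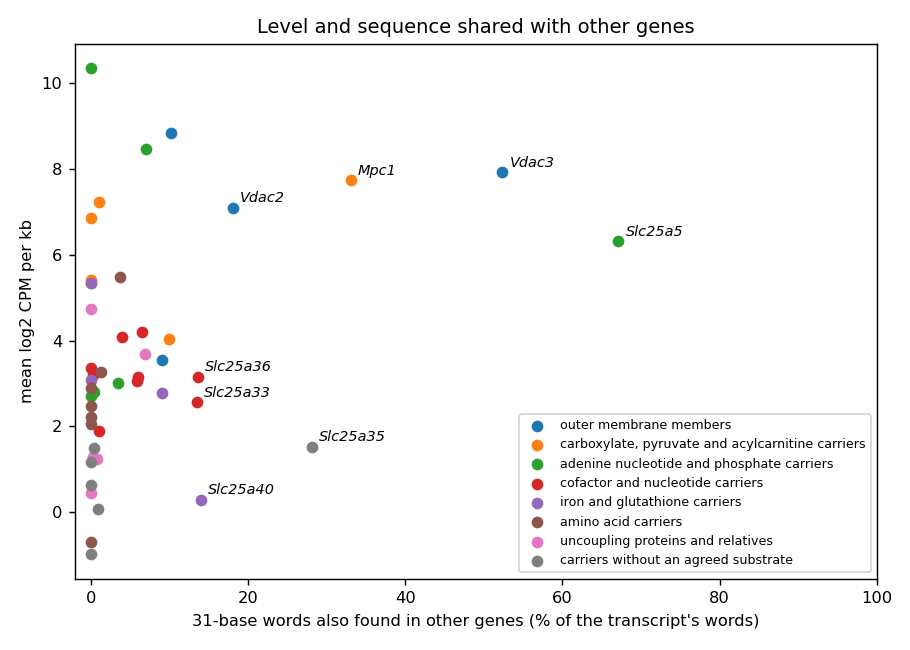
Level of each member (mean log2 CPM per kb, y axis) against the percent of its 31-base words that occur in other genes (x axis), with colours for the role. Most members lie near 0%, while Slc25a5 at 67.1% and Vdac3 at 52.3% lie far to the right.

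Members are spread over 19 chromosomes, with 6 on chromosome 11 and 4 each on chromosomes 8 and X. Only 3 pairs of members are direct neighbours among coding genes in RefSeq: Ucp3 and Ucp2 on chromosome 7, Slc25a29 and Slc25a47 on chromosome 12, and Slc25a43 and Slc25a5 on chromosome X. The last pair joined the lowest member of the set, at -0.98, to a member at 6.31.

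Beside the enzymes and respiratory chain subunits of mitochondria, the carriers had a lower median and a smaller share of genes in the top 10%. The 75 listed subunits of the respiratory chain and ATP synthase had a median level of 7.70 and a range from 0.32 to 10.17, and 71 of them were in the top 10% of genes. The 32 enzymes of the citric acid cycle and fatty acid oxidation had a median of 6.80 and a range from 3.23 to 8.67, and 28 were in the top 10%. Of the 47 members 13 were there. The highest of these lists were Atp5b at 10.17 and Cox4i1 at 10.10 for the first and Mdh2 at 8.67 for the second, and Slc25a4 at 10.34 was above each of them. The 25 other mitochondrial transport genes, among them the calcium uniporter and the sideroflexins, had a median of 3.35, near that of the members. This list is not free of SLC25 relatives, as members were kept out of it by the symbol rule alone. Relatives under other symbols stayed in it, such as Ucp1 at 2.63, and they were not counted. Smdt1, a regulator of the uniporter, was the highest at 7.40, followed by Ghitm at 6.71 and Tspo at 6.70. No test was made of these medians.

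**Figure D4:**
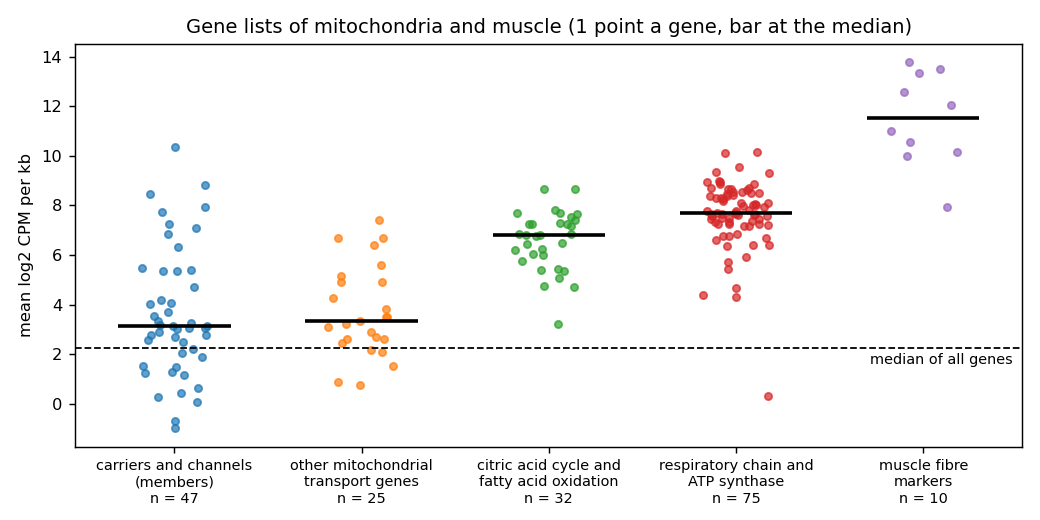
Level (mean log2 CPM per kb, y axis) of the genes of 5 lists, 1 point a gene with a bar at the median. Sideways spread is for display. The members have a median of 3.16 with a range of 11.33, whereas the subunits of the respiratory chain and ATP synthase cluster around 7.70.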

How the data were processed

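Poly(A) RNA of quadriceps from 6 mice, 3 WT and 3 GATA-1 mutant, was sequenced in paired ends 7 days post-injury. The authors pseudoaligned the reads with kallisto and obtained gene-level CPM in edgeR. A gene was retained when 3 samples or more exceeded 1 CPM. The table comes from their limma fit of TMM-scaled log2 values. The submitters' processing notes name the builds GRCm39 and mm39, and the transcript index is not given in the sources used here. The deposited table holds 1 column used here, the authors' mean log2 CPM of each gene. Its other columns are a log2 fold change of the genotypes, a moderated t, p-values before and after adjustment and a log-odds score, all from the authors' own comparison, and were not used. With no value per mouse, the limma fit planned for the genotypes was not run, and no test was made.

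Symbols were matched to GENCODE M21 (GRCm38), 13458 of 14016 directly and 480 through other symbols in RefSeq, so that 99.4% had a transcript length, and 1 gene had no symbol. As the builds differ, no gene coordinates are given apart from those of the RefSeq promoter windows. A percentile is the percent of genes with a lower level. The arithmetic was checked on simulated levels with known lengths, which does not test the choice of length. Shared 31-base words were counted between the longest coding transcript of each member and all GENCODE M21 transcripts of other genes on either strand. Coding sequences were aligned globally with Biopython 1.88, and percent identity is over aligned bases. Python 3.11.15, pandas 2.3.3 and matplotlib 3.10.9 were used. The members, lists, motifs and pairs of relatives were chosen with earlier results of these data known. Single values of some genes are not reported here. The other listed members are named, and of other lists the 3 highest, single markers, and those that share sequence with a member. The pairs of pyruvate, glutathione and pyrimidine carriers and Ucp1 and Plin1 were added after their values were seen. The alternatives tried were other lengths, other sets of genes to rank among and a minimum mean expression.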

Additional observations from a re-analysis of the deposited data

How the results depend on the processing

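No paired analysis was possible because the table holds no value per mouse. For the same reason the fits without each mouse, with the replicate block and with other pseudocounts, all planned, were not run. Of the 8 highest members 7 were also the 8 highest per kb of the median transcript, 7 with no length term and 8 per kb of coding length. Slc25a12, at place 10 per kb of the longest coding transcript, was at place 4 per kb of the median transcript and 5 with no length term. On both it took the place of Mpc2, which was at place 9. Of the 5 lowest, 4 were also the 5 lowest on each of these 3 scales. Per kb of the median transcript the gene that left was Slc25a13, from place 46 to place 42. The median percentile of the members, 65.4 among all genes, was 65.1 among protein-coding genes, 59.4 among genes of at least 1 log2 CPM and 55.4 among genes of at least 3 log2 CPM, which keep 47, 45 and 38 members. With a minimum of 1 log2 CPM, which removes Slc25a13 and Slc25a43, the median level of amino acid carriers was 2.69 against 2.48 and that of carriers without an agreed substrate 1.17 against 0.90. The medians of the other 6 roles did not move. In the order of the members Slc25a30 moved most, from place 39 to place 25 per kb of the median transcript. The levels have no error, and the unknown depth limits the members with a low mean most.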

Other observations

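Among the 75 listed subunits of the respiratory chain and ATP synthase, Ndufa9, a subunit of complex I, stood apart from the rest of its list. It had a mean of 0.85 log2 CPM and a level of 0.32, whereas the next lowest, Ndufb2, was at 4.32. It was singled out after its value was seen, and no cause was tested. The table lists 480 genes under a symbol that GENCODE M21 gives in another form, such as Emr1 and Ccdc109b, so the symbols come from an annotation other than the one used here for lengths.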
